A study of Mus musculus with 30 samples.

Results

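Ly6Chigh and Ly6Clow monocytes are the main subsets of circulating mouse monocytes, and they are compared here gene family by gene family in blood drawn from tumor-bearing animals. The comparison used 6 of the 28 replicates of the series, 3 of each population, each from mice 22, 23 and 24. A further deposited library of Ly6Clow monocytes from mouse 23 was left out because it failed the study's limit of 6000 genes with 5 or more reads, and its repeat library was used instead. The repeat was deposited in a set of counts separate from that of the other blood libraries. For this replicate, effects of the set and of the sample cannot be told apart. Members were chosen by the labels of the samples, not by any measured value.

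All mice were of the strain written C57BL6.CCR2RFP/WT and were 12 to 18 weeks old. They carry a red fluorescent protein in 1 allele of Ccr2, so both populations hold 1 disrupted copy of this chemokine receptor gene. All had a GL261 glioma, a mouse glioma line placed in the brain of a syngeneic host, and no blood of tumor-free mice was measured. Cells were taken by cardiac puncture and sorted as CD45high, CD115high and CD11clow, then split by surface Ly6C. The labels enter "brain" as the tissue of these samples, but their source and cell type fields give blood monocytes, and the groups follow those fields.

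Ly6Chigh, or classical, monocytes leave the bone marrow through the receptor Ccr2 and enter inflamed tissue, where they can become macrophages. Ly6Clow, or nonclassical, monocytes remain in the vessels, crawl along the endothelium and clear debris, and they depend on the transcription factor Nr4a1. Ly6C itself is a small surface protein of the Ly6 family, encoded by Ly6c2 in these cells.

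Each replicate held between 1695446 and 4394847 reads assigned to genes. Normalized read counts are given as CPM (counts scaled to the effective library size and multiplied by 1000000), always in the order of mice 22, 23 and 24, and fold changes are log2 of Ly6Chigh over Ly6Clow with the standard error (SE). A gene is said to be higher or lower only where its adjusted p was under 0.05 (quasi-likelihood test of edgeR, adjusted by Benjamini-Hochberg), and every adjusted p below comes from that test. The Ly6Clow library of mouse 23 stood apart, with 6475 genes reaching 5 reads against 9078 to 10882 in the other 5 and with rank correlations across genes of 0.670 to 0.715 to them, where the other pairs reached 0.818 to 0.947. The Ly6Clow library of mouse 24 lay closer to the Ly6Chigh libraries (0.920, 0.897 and 0.923) than to the Ly6Clow library of mouse 22 (0.874). That of mouse 22 reached 0.863, 0.826 and 0.818 to the Ly6Chigh libraries. Replicates thus did not all group by population on this measure. Spike-in RNAs, added before reverse transcription, took 0.290% to 1.26% of counts in Ly6Chigh and 0.779% to 13.3% in Ly6Clow replicates. The share of reads on no annotated gene was 8.86% to 12.5% in Ly6Chigh and 12.0% to 17.4% in Ly6Clow replicates, and that of mitochondrial genes was 0.533% to 0.719% against 1.21% to 2.34%. The first ranges overlapped and the mitochondrial ones did not.

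The markers that were called went with the labels of both subsets. Ly6c2, whose protein the sort used, gave 964, 1273 and 1291 CPM in Ly6Chigh and 27.8, 273 and 68.1 CPM in Ly6Clow monocytes, which is a check of the sort and no finding. Csf1r, which encodes the CD115 of the gate, gave 3408, 3588 and 3694 CPM against 1945, 2558 and 3940 CPM and was not called (adjusted p = 0.452). Of 12 classical markers tested, 5 were higher in Ly6Chigh monocytes and none lower, among them Fcgr1, Ly6c2, Vcan and Ccr2. Fcgr1, the high-affinity receptor for IgG, gave 141, 188 and 118 CPM against 30.7, 49.0 and 48.8 CPM (log2 fold change 1.79, SE 0.24, adjusted p = 6.28e-05). Ccr2 gave 1890, 2384 and 1906 CPM against 221, 916 and 547 CPM (1.87, SE 0.49, adjusted p = 0.0235), a call that was lost without the Ly6Chigh library of mouse 23 (adjusted p = 0.0659) or 24 (0.0569) or the Ly6Clow library of mouse 22 (0.0723). The ranges of both populations were apart for all 5 called markers.

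More classical markers passed once the mouse was taken as a block, since each mouse gave both populations. With this replicate block 10 of the 12 were higher. Chil3, a chitinase-like secreted protein, gave 1731, 5491 and 1110 CPM against 36.3, 601 and 107 CPM (adjusted p = 0.0546, and 0.00017 with the block). F13a1, the A chain of coagulation factor XIII, gave 4831, 5043 and 4038 CPM against 111, 991 and 376 CPM (adjusted p = 0.105, and 0.00238 with the block). In both genes every Ly6Chigh value lay above every Ly6Clow value, and in each mouse the ratio favored the Ly6Chigh cells. Cd177, Fn1 and Mgst1 likewise passed with the block, at adjusted p = 0.00174, 0.00954 and 0.0363. Without the Ly6Clow library of mouse 23, Chil3, Cd177 and Mgst1 also passed (0.0228, 0.0412 and 0.0459).

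Of 14 nonclassical markers, 6 were lower in Ly6Chigh monocytes and none higher, a count that held with the block and without the Ly6Clow library of mouse 23. Without the Ly6Clow library of mouse 24, 6 were lower and 2 higher, the latter being Cx3cr1 and Tnfrsf1b (adjusted p = 0.00656 and 0.0348). Cd9, a tetraspanin, gave 102, 16.4 and 29.7 CPM against 1067, 727 and 522 CPM (log2 fold change -3.98, SE 0.43, adjusted p = 5.47e-06). Fcgr4, the activating IgG receptor that marks patrolling monocytes, gave 97.2, 43.9 and 32.2 CPM against 498, 682 and 358 CPM (-3.16, SE 0.37, adjusted p = 1.21e-05). Spn, the sialomucin CD43, gave 66.3, 30.5 and 55.8 CPM against 231, 469 and 335 CPM (-2.76, SE 0.49, adjusted p = 0.00124). These 3 separated the populations completely. The other members called were Eno3, Cd36 and Itgax.

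Several textbook genes of the nonclassical subset did not separate the replicates. Nr4a1 gave 810, 359 and 521 CPM in Ly6Chigh and 510, 411 and 1023 CPM in Ly6Clow monocytes (adjusted p = 0.897). Cx3cr1, the fractalkine receptor, gave 677, 534 and 881 CPM against 290, 283 and 894 CPM (adjusted p = 0.432). Treml4 gave 586, 167 and 192 CPM against 885, 710 and 1204 CPM, with no overlap of the groups but an adjusted p of 0.197 (0.0562 with the block). Values of Ace, Ceacam1, Itgal, Pparg and Tnfrsf1b did not pass either.

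**Figure D1:**
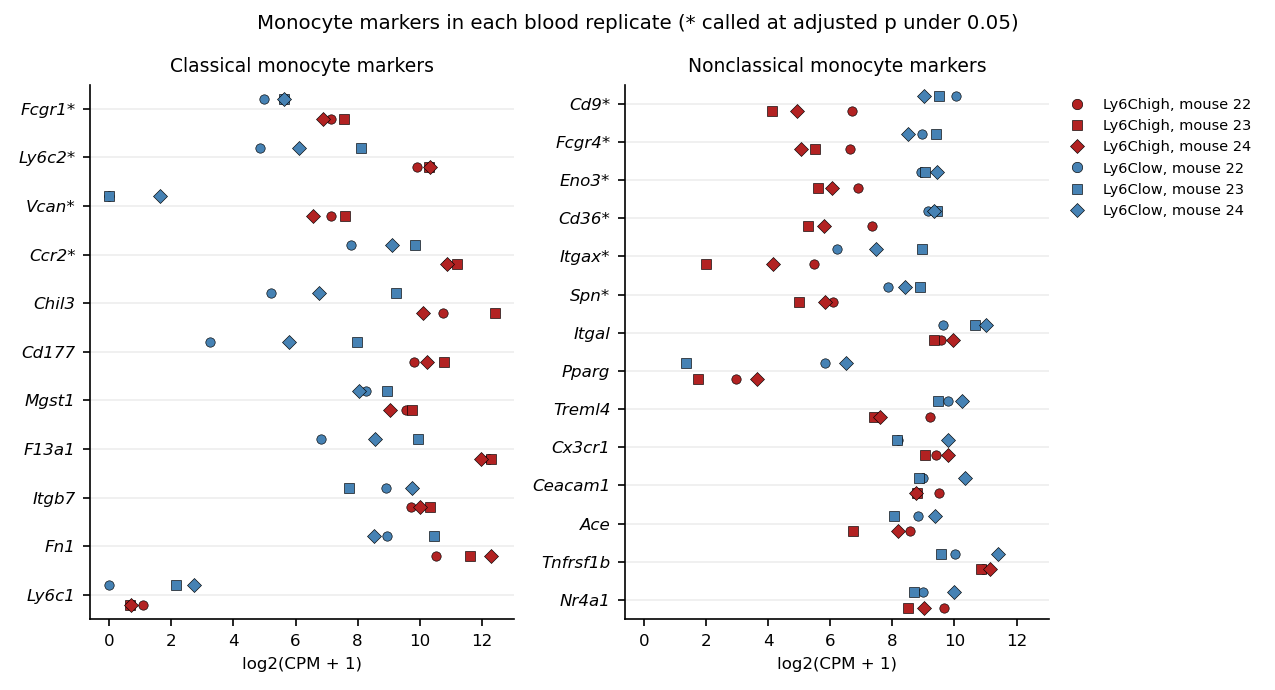
Normalized read counts of the classical and nonclassical monocyte markers, as log2(CPM + 1) on the horizontal axis, with 1 point per replicate (color for the population, symbol for the mouse) and genes ordered by p. The asterisked genes at the top of each panel keep red Ly6Chigh and blue Ly6Clow points apart, while Nr4a1, Tnfrsf1b and Ace lower in the right panel show both colors mixed.

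Across all genes, 649 of the 11566 tested were called, a background share of 5.61%, with 227 higher (1.96%) and 422 lower (3.65%) in Ly6Chigh monocytes. Of the 649 calls, 611 had the same sign in all 3 mice and 538 had groups that did not overlap. Over all 11566 genes tested, 2062 had groups without overlap, 1226 with the larger mean in Ly6Chigh and 836 in Ly6Clow. Groups without overlap are thus common with 3 replicates each, and where named below they describe the values and add no support to a call. With each mouse taken as a block, 922 genes were called, 364 higher and 558 lower. The estimate of spread was shared with the 22 brain replicates of the series. When only the 6 blood replicates were fitted, edgeR called 0 of 8928 genes, with 634 at an unadjusted p under 0.05, while DESeq2 called 193 and limma-voom 184. Ccl2, Ccl3, Itga6, Ltc4s, Pf4, Plxna1, Tfec, Tlr3 and Tlr12 did not pass the expression filter of these fits. They were tested in the main fit because its filter was applied over blood and brain replicates together. Leaving out the Ly6Clow library of mouse 23 gave 513 calls, leaving out that of mouse 24 gave 2444, and leaving out the Ly6Chigh library of mouse 23 gave 224. Of 157 called genes followed by name, 75 remained called with each of the 6 libraries left out in turn, and where a gene described below lost its call, the libraries concerned are given beside it.

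Markers of lymphocytes moved with the Ly6Clow population. Of 16 T cell markers tested 11 were lower in Ly6Chigh monocytes, and their summed level was 36.9 to 319 CPM in Ly6Chigh and 1447 to 2190 CPM in Ly6Clow replicates. Of 14 NK cell markers tested 9 were lower, at 57.4 to 187 CPM against 814 to 1094 CPM. None of 14 B cell markers was called, with summed levels of 636 to 839 CPM against 1303 to 1481 CPM (4 were lower with the replicate block). None of the markers of T cells was at 0 in all replicates, and all T, NK and B cell members tested had a fold change of 0 or below. The sum of neutrophil markers went the other way, at 2101 to 3140 CPM in Ly6Chigh and 978 to 1176 CPM in Ly6Clow replicates, with 2 of 14 higher (Mmp8 and Csf3r). The list was not uniform, since 9 of the 14 tested had a fold change above 0. Its median log2 difference was 1.96, 0.43 and 0 within mice 22, 23 and 24. In bulk samples fewer cells of a type and less RNA per cell cannot be told apart.

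**Figure D2:**
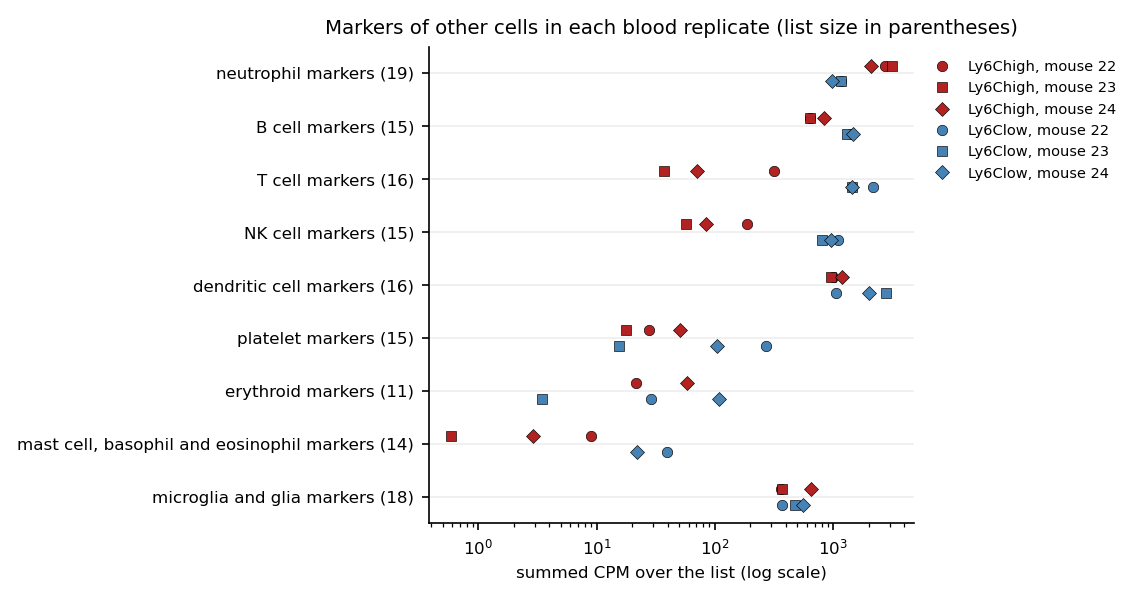
Summed CPM of the marker lists of other cells (horizontal axis, log scale), with 1 point per replicate. T and NK cell markers form separate red and blue clusters, with the Ly6Clow replicates at 1447 to 2190 CPM and 814 to 1094 CPM. Replicates with a sum of 0 (Ly6Chigh of mouse 23 for erythroid markers, Ly6Clow of mouse 23 for mast cell, basophil and eosinophil markers) have no point.

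The genes with the widest gap between the populations included secreted, signaling and scavenging proteins on the Ly6Chigh side. Vcan, which encodes the matrix proteoglycan versican (chromosome 13, 89655312 to 89742509 in GRCm38), gave 140, 192 and 93.4 CPM in Ly6Chigh monocytes, and in Ly6Clow monocytes it was at 0 in 2 replicates and at 2.07 CPM in the third. I830127L07Rik, a transcribed pseudogene beside the Ly6 genes (chromosome 15, 75131377 to 75135128), gave 233, 251 and 218 CPM against 12.3, 24.7 and 25.2 CPM (log2 fold change 3.49, SE 0.71, adjusted p = 0.00385). Tnfrsf21, the death receptor DR6 (chromosome 17, 43016555 to 43089189), gave 402, 349 and 508 CPM against 76.0, 1.93 and 66.9 CPM (3.12, SE 0.78, adjusted p = 0.0171), and its call was lost without the Ly6Chigh library of mouse 24 (0.0592). All 3 genes had every Ly6Chigh value far above the Ly6Clow range. Plcb1, a phospholipase C, gave 84.3, 62.7 and 94.5 CPM against 11.3, 0 and 1.48 CPM (4.27, SE 1.11, adjusted p = 0.0227), lost without the Ly6Chigh library of mouse 23 (0.055) or 24 (0.0788). Ampd2, which deaminates AMP, gave 53.9, 59.7 and 50.8 CPM against 12.7, 0 and 13.9 CPM (2.62, SE 0.71, adjusted p = 0.0277), lost without any of the Ly6Chigh libraries (0.051, 0.0823 and 0.0682 in mouse order). Reads of I830127L07Rik may be shared with its Ly6 neighbors, so that value is uncertain.

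On the Ly6Clow side the widest gaps belonged to genes of several cell types. Fcrls, an Fc receptor-like scavenger protein of macrophages (chromosome 3, 87250758 to 87263738), gave 131, 86.4 and 31.7 CPM in Ly6Clow and at most 1.12 CPM in Ly6Chigh monocytes (log2 fold change -6.78, SE 0.78, adjusted p = 1.21e-05). Ltbp1, which holds latent TGF-beta in the matrix (chromosome 17, 75005568 to 75392512), was at 0 in all Ly6Chigh replicates and at 27.8, 413 and 7.99 CPM in Ly6Clow, at least 110-fold higher against a floor of 3 counts per library, and 13.2-fold without the Ly6Clow library of mouse 23. Values of both genes varied widely among the Ly6Clow replicates. Gimap7, a GTPase of lymphocytes, gave 48.6, 34.7 and 53.3 CPM in Ly6Clow against 2.81, 0 and 1.25 CPM (-5.03, SE 0.81, adjusted p = 0.000429). Trbc2, a constant segment of the T cell receptor beta chain, gave 225, 159 and 130 CPM against 15.2, 5.86 and 6.69 CPM (-4.23, SE 0.67, adjusted p = 0.000356). Klrb1c, the NK1.1 antigen of NK cells, gave 27.8, 38.2 and 32.0 CPM against 2.81, 0 and 2.72 CPM (-4.03, SE 0.72, adjusted p = 0.00122). Gimap7 moved with the T and NK marker sums given above, whose part in it was not tested. Trbc2 and Klrb1c are themselves members of those sums, so their moving with them adds nothing.

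The families were then read as lists, and the share of members called was set beside the background. Among 37 family and pathway lists, 31 had a larger share called than the 5.61% of all genes, and 6 were at or below it. Members were called in both directions in 27 lists, only lower in 8 and only higher in 1, and no member was called in 1. The lists together held 1409 tested genes, of which 213 were called. Lists and members were chosen with earlier results of these data known, so shares above the background are not an independent result.

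**Figure D3:**
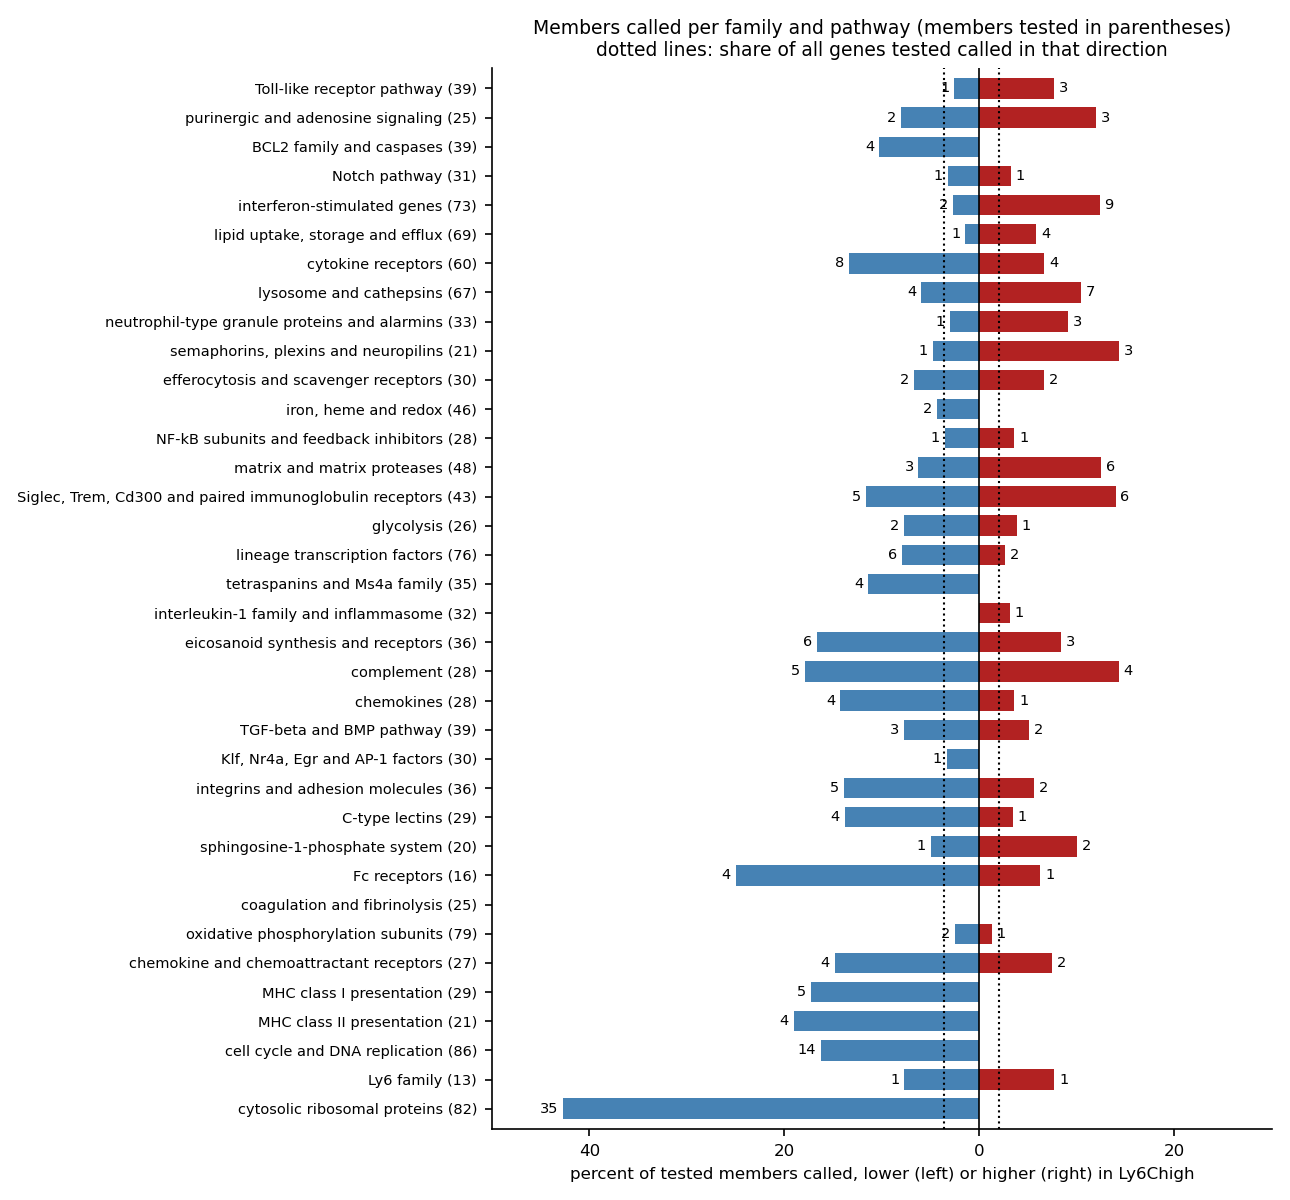
Percent of tested members called lower (blue, left) or higher (red, right) in Ly6Chigh monocytes for 36 of the lists, ordered by the median log2 fold change, with the number of members called at the end of each bar and the background of 3.65% and 1.96% as dotted lines. The bars of cytosolic ribosomal proteins (35 of 82), Fc receptors, MHC class II and cell cycle reach far left, and the interferon-stimulated, semaphorin and matrix lists show bars to the right above the dotted line.

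Surface receptors of the Ly6 family split, with Ly6c2 higher and Ly6a lower in Ly6Chigh monocytes among 13 members tested. Ly6a, the stem cell antigen Sca-1 (chromosome 15, 74994877 to 74998031), gave 24.2, 17 and 15.7 CPM in Ly6Chigh and 212, 268 and 202 CPM in Ly6Clow monocytes (log2 fold change -3.60, SE 0.29, adjusted p = 2.92e-08). Within each population its values stayed within a narrow band, and the bands lay far apart. Ly6e gave 4017, 4417 and 3194 CPM against 4090, 5111 and 4438 CPM (adjusted p = 0.591). Ly6i, at 140, 67.4 and 62.3 CPM against 513, 334 and 372 CPM, missed the threshold (adjusted p = 0.0616). Ly6 genes are near copies of each other, so reads may be split among them, and their values are uncertain to that degree.

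Fc receptors also split. Fcgr1, higher in Ly6Chigh monocytes, was the mirror image of Fcgr4 above. Fcgrt, the neonatal receptor that recycles IgG, gave 131, 128 and 145 CPM against 359, 360 and 228 CPM (-1.23, SE 0.28, adjusted p = 0.00834), lost without the Ly6Chigh library of mouse 23 (0.0681), with a fold change of 0.84 under spike-in scaling. Fcgrt, like Fcgr1, separated the populations completely. The inhibitory receptor Fcgr2b (445, 557 and 351 CPM against 211, 362 and 233 CPM), the low-affinity receptor Fcgr3 (545, 771 and 641 CPM against 271, 612 and 402 CPM) and their common signaling chain Fcer1g did not pass (adjusted p = 0.0806, 0.168 and 0.24). In all, 1 of 16 members tested was higher and 4 lower, and without the Ly6Clow library of mouse 23 it was 3 and 4.

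Tetraspanins organize other membrane proteins into patches, and together with the Ms4a family they gave 4 lower and no higher of 35 tested (4 and 4 without the Ly6Clow library of mouse 23, 6 and 1 with the replicate block). Cd81, the partner of Cd9, gave 47.8, 8.2 and 7.32 CPM in Ly6Chigh and 268, 237 and 121 CPM in Ly6Clow monocytes (log2 fold change -3.34, SE 0.48, adjusted p = 0.000111). Cd82 gave 198, 101 and 77.1 CPM against 793, 248 and 511 CPM (-2.05, SE 0.46, adjusted p = 0.0076), a call lost without the Ly6Chigh library of mouse 23 (0.0725) or 24 (0.0682) or the Ly6Clow library of mouse 22 (0.0576). In these tetraspanins the Ly6Chigh library of mouse 22 was the highest of its group, as it was for the T cell marker sum. Ms4a4b, a gene of lymphocytes, gave 110, 37.5 and 30.9 CPM against 353, 371 and 189 CPM (-2.37, SE 0.58, adjusted p = 0.0147), lost without the Ly6Chigh library of mouse 23 (0.109) or 24 (0.102). Cd63, a tetraspanin of late endosomes, gave 8.43, 0 and 1.67 CPM against 8.49, 9.25 and 5.33 CPM (adjusted p = 0.128).

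Among the Siglec, Trem, Cd300 and paired immunoglobulin receptors, 11 of 43 tested were called (25.6%), 6 higher and 5 lower (8 and 11 with the replicate block). Lilrb4, an inhibitory receptor of myeloid cells, gave 503, 520 and 302 CPM in Ly6Chigh against 175, 73.3 and 98.6 CPM in Ly6Clow monocytes (log2 fold change 1.93, SE 0.30, adjusted p = 0.000343). Cd33, an inhibitory Siglec, gave 97.2, 55.1 and 57.5 CPM against 10.4, 0 and 21 CPM (2.71, SE 0.60, adjusted p = 0.0072). Tarm1, a receptor that signals through the Fc receptor gamma chain, gave 22.5, 32.8 and 5.23 CPM against 0, 0 and 0.888 CPM (5.63, SE 0.74, adjusted p = 4.92e-05). All 3 calls held with each library left out. Siglec1, the sialoadhesin of macrophages (chromosome 2, 131069220 to 131086765), gave 18.5, 12.3 and 54.6 CPM against 0, 0.386 and 1.48 CPM (5.27, SE 1.32, adjusted p = 0.0171), lost without the Ly6Chigh library of mouse 24 (0.096) or the Ly6Clow library of mouse 22 (0.0587) or 23 (0.0818). Lilr and Pir genes are near-identical copies, so their counts are uncertain.

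The Ly6Clow side of that family also held inhibitory receptors. Lair1, an inhibitory collagen receptor, gave 426, 486 and 537 CPM in Ly6Clow and 248, 134 and 86.7 CPM in Ly6Chigh monocytes (log2 fold change -1.63, SE 0.30, adjusted p = 0.00153). Cd300ld gave 915, 478 and 1126 CPM against 306, 221 and 186 CPM (-1.82, SE 0.35, adjusted p = 0.00206). Both held with each library left out. Siglecg, an inhibitory Siglec best known on B cells, gave 27.4, 110 and 21.9 CPM against 5.06, 4.10 and 1.67 CPM (-3.91, SE 0.91, adjusted p = 0.0104), lost without the Ly6Chigh library of mouse 23 (0.0609) or 24 (0.0806) or the Ly6Clow library of mouse 23 (0.0683). Hcst, the adaptor DAP10 shared with NK cells, was lower as well (-1.56, SE 0.39, adjusted p = 0.0178), lost without the Ly6Chigh library of mouse 23 (0.082) or 24 (0.118) or the Ly6Clow library of mouse 22 (0.0838), and its fold change was 0.21 with spike-in scaling.

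C-type lectins, which bind sugars on microbes and host proteins, gave 1 higher and 4 lower of 29 tested (2 and 2 without the Ly6Clow library of mouse 23). Clec5a, an activating lectin that recognizes flaviviruses, gave 89.9, 87.9 and 49.3 CPM in Ly6Chigh against 3.77, 3.86 and 15.1 CPM in Ly6Clow monocytes (log2 fold change 3.26, SE 0.52, adjusted p = 0.000352). The galactose-type lectins went the other way. Mgl2 gave 24.1, 79.0 and 65.4 CPM in Ly6Clow against 0, 1.76 and 3.97 CPM in Ly6Chigh monocytes (-4.61, SE 0.82, adjusted p = 0.00116), and Clec10a gave 75.5, 477 and 205 CPM against 36.5, 48.0 and 46.4 CPM (-2.53, SE 0.49, adjusted p = 0.00231). These lectins are also carried by dendritic cells, whose marker sum was 955 to 1193 CPM in Ly6Chigh and 1068 to 2801 CPM in Ly6Clow replicates, and the part of such cells was not tested.

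**Figure D4:**
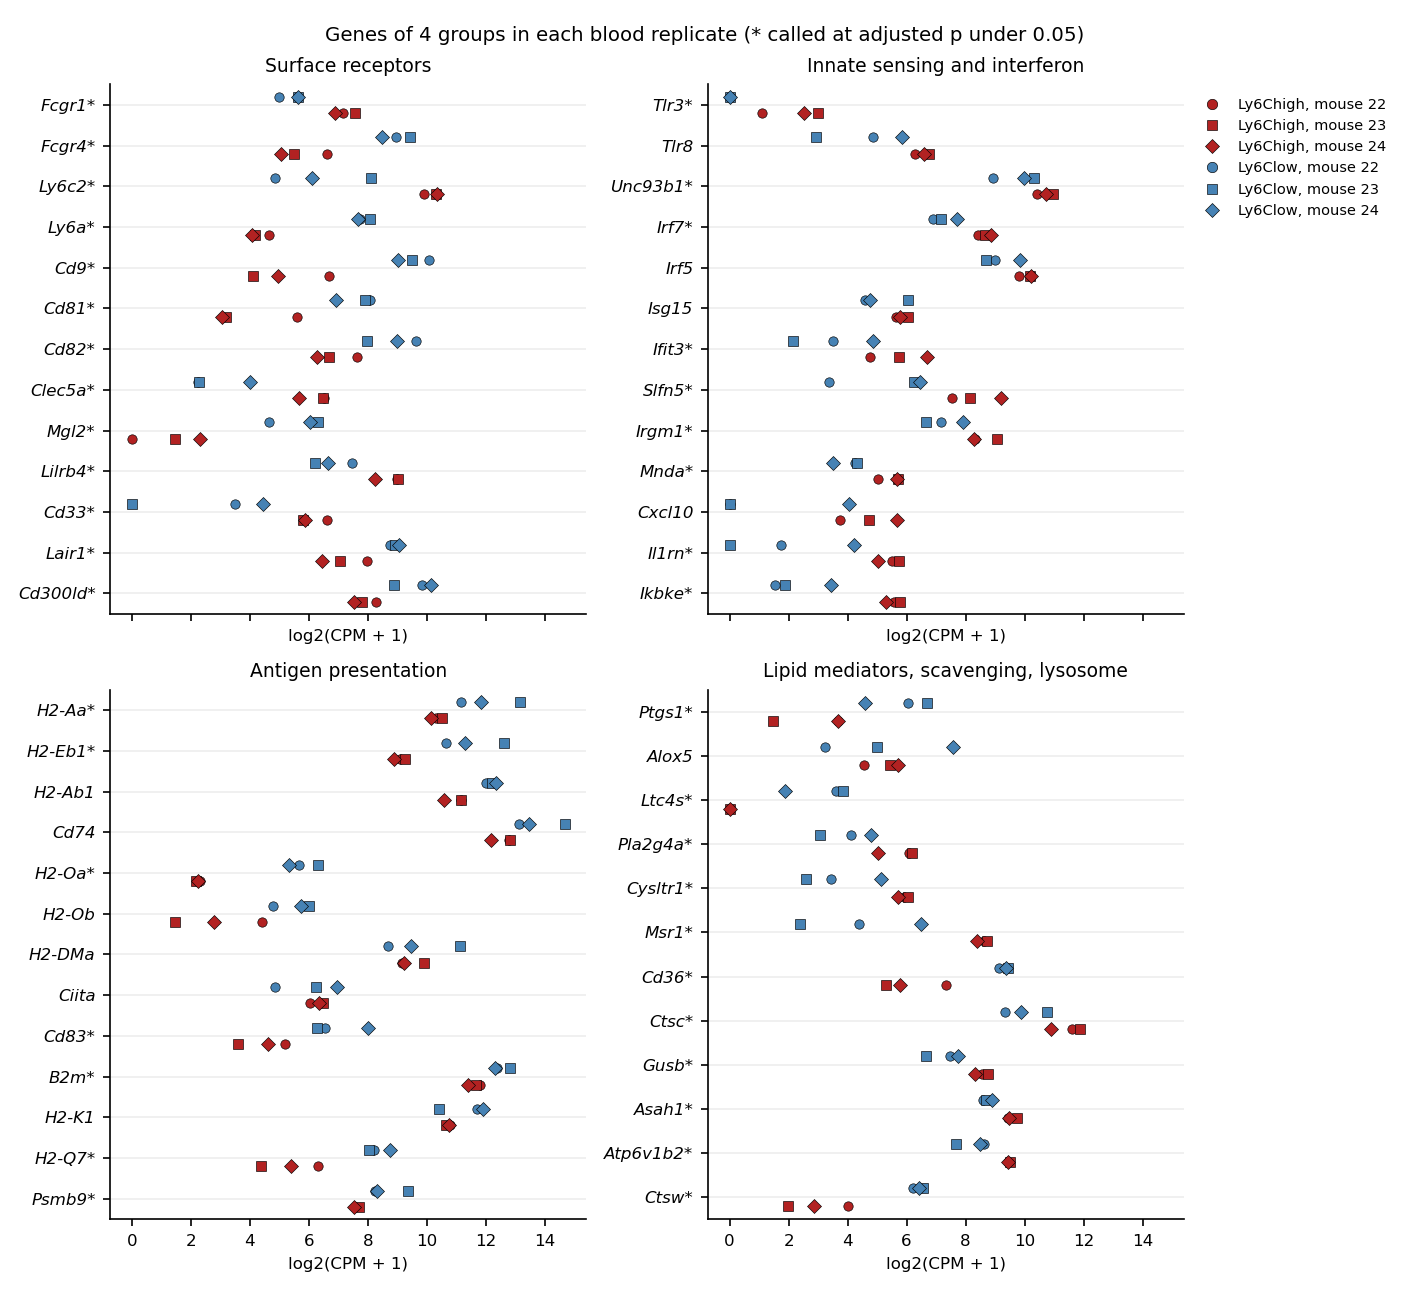
Normalized read counts of genes from 4 groups, as log2(CPM + 1), with 1 point per replicate (color for the population, symbol for the mouse) and asterisks for called genes. Fcgr1 and Fcgr4 in the first panel are mirror images, H2-Oa keeps its Ly6Chigh points at 3.51 to 3.93 CPM below all Ly6Clow points, and Tlr3 has its 3 Ly6Clow points at 0.

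Of 27 chemokine and chemoattractant receptors tested, 2 were higher, Ccr1 and Ccr2, and 4 lower. Ccr1, a receptor for inflammatory CC chemokines, gave 266, 265 and 83.6 CPM in Ly6Chigh against 88.2, 60.5 and 37.0 CPM in Ly6Clow monocytes (log2 fold change 1.72, SE 0.33, adjusted p = 0.00219). The groups overlapped at their edges, but each mouse had more in its Ly6Chigh cells. Cxcr6, the receptor for the membrane-bound chemokine Cxcl16, gave 158, 211 and 385 CPM in Ly6Clow against 10.7, 2.34 and 17.1 CPM (-4.58, SE 0.54, adjusted p = 1.33e-05). Ccr7, which directs cells to lymph nodes, gave 228, 122 and 126 CPM against 44.9, 0.586 and 10.03 CPM (-3.12, SE 0.65, adjusted p = 0.00453). Cxcr3, a receptor of activated T and NK cells, gave 30.2, 60.5 and 96.5 CPM against 15.7, 13.5 and 13.4 CPM (-2.14, SE 0.52, adjusted p = 0.014), lost without the Ly6Chigh library of mouse 23 (0.0861) or 24 (0.0751). Cxcr4, which retains cells in the marrow, was lower (-2.70, SE 0.59, adjusted p = 0.00662), but at 0.142 without the Ly6Clow library of mouse 23 and 0.0515 without the Ly6Chigh library of mouse 24, with a fold change of 0.12 under spike-in scaling. Cxcr6, Ccr7 and Cxcr3 are also lymphocyte receptors and moved with the T and NK marker sums given above, whose part was not tested.

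Few chemokine ligands were expressed, and 17 of 36 in the list were at 0 in all 6 replicates. Ccl2, the ligand of Ccr2, was at 0 in every Ly6Clow replicate and at 0.562, 4.69 and 7.11 CPM in Ly6Chigh, at least 3.57-fold higher against a floor of 3 counts per library (2.28-fold without mouse 24). Cxcl13, which attracts B cells, was at 0 in every Ly6Chigh replicate and at 76.0, 56.7 and 5.33 CPM in Ly6Clow, at least 33.9-fold higher by the same floor. Both calls held with each library left out, but Ccl2 rests on few counts and did not pass the expression filter in the blood replicates alone. Ccl3, an inflammatory CC chemokine, rested on the Ly6Clow library of mouse 23 (4.25, 37.8 and 2.07 CPM against 2.25, 0 and 2.51 CPM), with an adjusted p of 0.0438 that went to 0.789 without it and to 0.106 to 0.187 without a Ly6Chigh library, and a fold change of 0.87 under spike-in scaling. Pf4, the platelet chemokine, rested on the Ly6Clow library of mouse 22 (108, 0 and 9.47 CPM against 0.562, 1.76 and 0 CPM), with an adjusted p of 0.0303 that went to 0.281 without it and to 0.0816 to 0.16 without a Ly6Chigh library. Platelet markers, Pf4 among them, summed to 270, 15.4 and 105 CPM in these Ly6Clow replicates and to 17.6 to 50.8 CPM in Ly6Chigh, and the part of platelets in the Pf4 value was not tested. Ccl5, a chemokine of T and NK cells, gave 220, 63.2 and 162 CPM against 59.0, 8.79 and 13.8 CPM (adjusted p = 0.0291), lost without the Ly6Chigh library of mouse 23 (0.169) or 24 (0.154) or the Ly6Clow library of mouse 22 (0.104).

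Of 36 adhesion molecules tested 5 were lower and 2 higher, with a median of -0.13 and 15 above 0, while 422 of the 649 calls over all genes were lower. Pecam1, a junction protein of endothelium and leukocytes, gave 36.3, 91.4 and 41.1 CPM in Ly6Clow against 13.5, 12.3 and 5.43 CPM in Ly6Chigh monocytes (log2 fold change -2.46, SE 0.52, adjusted p = 0.00537), lost without the Ly6Chigh library of mouse 24 (0.0541). Itgax, the CD11c of the gate, gave 73.6, 495 and 175 CPM against 43.3, 2.93 and 16.9 CPM (-3.56, SE 0.63, adjusted p = 0.00114) although both populations were sorted as CD11clow. The groups were apart in both genes. Itga6, an integrin subunit that binds laminin, was lower on few counts (adjusted p = 0.0185), lost without the Ly6Chigh library of mouse 22 (0.082) or 23 (0.105) or the Ly6Clow library of mouse 23 (0.0988). The integrin chains that most monocytes use did not pass, with Itgam at 522, 566 and 1144 CPM against 308, 601 and 978 CPM (adjusted p = 0.867) and Itgb2 at 1693, 1692 and 1727 CPM against 1730, 1530 and 2901 CPM (adjusted p = 0.592). Emilin2, a secreted glycoprotein, gave 822, 1016 and 1404 CPM against 241, 316 and 277 CPM (1.96, SE 0.47, adjusted p = 0.0134), lost without the Ly6Chigh library of mouse 24 (0.0732).

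The sphingosine-1-phosphate system, which draws leukocytes toward the blood, had 2 enzymes higher and 1 receptor lower of 20 tested. Asah1, the acid ceramidase that releases sphingosine, gave 701, 849 and 711 CPM in Ly6Chigh against 384, 415 and 477 CPM in Ly6Clow monocytes (log2 fold change 0.82, SE 0.20, adjusted p = 0.0161), lost without the Ly6Chigh library of mouse 23 (0.0602). Sgpl1, the lyase that ends the pathway, gave 450, 541 and 569 CPM against 138, 155 and 373 CPM (adjusted p = 0.0495) and lost its call in 5 of the 6 fits with a library left out (0.0578 to 0.17), all but that without the Ly6Clow library of mouse 24. Both enzymes had groups that did not overlap. S1pr1, the receptor by which lymphocytes leave lymph nodes, gave 97.2, 103 and 73.7 CPM in Ly6Clow against 43.3, 5.86 and 7.11 CPM (-2.30, SE 0.62, adjusted p = 0.0264), lost without the Ly6Chigh library of mouse 23 (0.16) or 24 (0.145) or the Ly6Clow library of mouse 22 (0.0552) or 23 (0.0532). S1pr5, the receptor known for the exit of nonclassical monocytes from the marrow, gave 316, 8.87 and 145 CPM against 87.1, 25.8 and 80.3 CPM and overlapped (adjusted p = 0.54).

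Innate sensing leaned to Ly6Chigh monocytes, with 32 of 39 tested members of the Toll-like receptor pathway above 0 in log2 fold change, a median of 0.68 against 0.02 for all genes, and 3 members higher and 1 lower (a median of 0.40, 2 and 0 without the Ly6Clow library of mouse 23, and 6 and 1 with the replicate block). Tlr3, the sensor of double-stranded RNA, was at 0 in all Ly6Clow replicates and at 1.12, 7.03 and 4.81 CPM in Ly6Chigh, at least 3.75-fold higher against the floor. Tlr3 rests on few counts and did not pass the expression filter in the blood replicates alone. Unc93b1, which carries the nucleic acid sensing receptors to endosomes, gave 1387, 2011 and 1696 CPM against 488, 1267 and 1013 CPM (0.88, SE 0.25, adjusted p = 0.0381), lost without the Ly6Chigh library of mouse 23 (0.111) or 24 (0.1) or the Ly6Clow library of mouse 22 (0.112). Both had separate groups. Irf7, the interferon regulatory factor that these receptors activate, gave 338, 402 and 463 CPM against 117, 144 and 207 CPM (1.36, SE 0.35, adjusted p = 0.0201), lost without the Ly6Chigh library of mouse 23 (0.0568) or 24 (0.0873) or the Ly6Clow library of mouse 22 (0.0837) or 23 (0.0656). Tlr12 was lower only through the Ly6Clow library of mouse 23 (0.472, 110 and 0.592 CPM), with an adjusted p of 0.602 without it and 0.0509 without the Ly6Chigh library of mouse 24. The surface sensors Tlr2 (202, 225 and 181 CPM against 65.1, 164 and 93.5 CPM) and Tlr4 (73.0, 127 and 79.2 CPM against 54.3, 0 and 67.5 CPM) did not pass (adjusted p = 0.206 and 0.318).

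Interferon-stimulated genes gave 9 higher and 2 lower of 73 tested, with 15.1% called, and 14 higher with the replicate block. Without the Ly6Clow library of mouse 23 the counts were 11 and 3. Slfn5, a Schlafen family protein, gave 186, 281 and 588 CPM in Ly6Chigh against 9.43, 74.4 and 86.4 CPM in Ly6Clow monocytes (log2 fold change 2.63, SE 0.58, adjusted p = 0.00675), lost without the Ly6Chigh library of mouse 24 (0.0654). Mnda, a nuclear protein of the myeloid lineage, gave 32.0, 51.0 and 50.2 CPM against 17.9, 18.9 and 10.4 CPM (1.50, SE 0.32, adjusted p = 0.0053) and held with each library left out. The groups of both genes were apart. Ifit3, which binds to antiviral signaling complexes, gave 25.8, 52.1 and 102 CPM against 10.4, 3.47 and 27.8 CPM (2.10, SE 0.52, adjusted p = 0.0157), lost without the Ly6Chigh library of mouse 24 (0.152) or the Ly6Clow library of mouse 22 (0.0659) or 23 (0.0621). Irgm1, a GTPase that controls autophagy of pathogens, gave 317, 532 and 308 CPM against 142, 99.5 and 242 CPM (1.26, SE 0.31, adjusted p = 0.0149), lost without the Ly6Chigh library of mouse 23 (0.107) or the Ly6Clow library of mouse 22 (0.0539) or 23 (0.0708). The rest of the list was not uniform, since Isg15 (49.4, 65 and 53.5 CPM against 23.1, 65.5 and 26 CPM) and Ifit1 (33.7, 21.1 and 61.2 CPM against 27.8, 70.6 and 17.2 CPM) overlapped (adjusted p = 0.505 and 1). Ifi27, a mitochondrial protein, was lower (-1.50, SE 0.35, adjusted p = 0.01, and 0.0843 without the Ly6Chigh library of mouse 24), with a fold change of 0.06 under spike-in scaling. Ifi44 was lower through the Ly6Clow library of mouse 23 (0.877 without it, and 0.132 and 0.163 without the Ly6Chigh libraries of mice 22 and 23), with a fold change of 0.84 under spike-in scaling.

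Interferon acts on such genes through a short promoter element bound by interferon-activated factors. The element, GAAA repeated after a gap of 2 bases, was searched on both strands of the 250 bases before each RefSeq start (GRCm38.p6) and was found in 2.98% of 32851 promoters. Counted by gene symbol, where 1 matching promoter of a gene suffices, it was found in 3.46% of 27025. By the same count it occurred in 5 of the 9 called interferon-stimulated genes in that table and in 21 of the 46 not called. The promoters of Ifit3, with 2 matches on the minus strand that begin 156 and 122 bases before the start, and of Irgm1, with 2 overlapping matches at 30 and 24 bases, are shown for the spacing of the element, whose bases are in capitals. Ifit3 lies at chr19:34583279-34583528 on the plus strand and Irgm1 at chr11:48871421-48871670 on the minus strand, each read 5′ to 3′ toward its gene.
Ifit3: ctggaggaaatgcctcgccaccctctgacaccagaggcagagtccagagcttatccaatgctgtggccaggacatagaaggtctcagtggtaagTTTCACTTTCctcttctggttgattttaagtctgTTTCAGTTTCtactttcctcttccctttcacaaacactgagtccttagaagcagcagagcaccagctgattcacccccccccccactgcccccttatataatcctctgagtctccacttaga
Irgm1: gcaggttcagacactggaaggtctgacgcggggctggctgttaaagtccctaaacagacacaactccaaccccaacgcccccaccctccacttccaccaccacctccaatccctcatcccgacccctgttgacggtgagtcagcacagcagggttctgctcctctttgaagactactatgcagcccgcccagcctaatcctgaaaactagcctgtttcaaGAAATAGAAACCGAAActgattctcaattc

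Inflammatory signaling outside the interferon system showed single genes. Il1rn, the antagonist that blocks interleukin-1, was the only called member of 32 in the interleukin-1 and inflammasome list (3.12%, below the background) and gave 44.4, 52.1 and 31.8 CPM in Ly6Chigh against 2.36, 0 and 17.5 CPM in Ly6Clow monocytes (log2 fold change 2.60, SE 0.60, adjusted p = 0.0104), with 0.0505 without the Ly6Chigh library of mouse 23 and 0.0504 without the Ly6Clow library of mouse 22. Il1b itself gave 146, 73.8 and 44.3 CPM against 129, 210 and 128 CPM (adjusted p = 0.401). Ikbke, a kinase of the antiviral and NF-kB pathways (chromosome 1, 131254343 to 131279606), gave 46.6, 53.9 and 38.7 CPM against 1.89, 2.70 and 9.77 CPM (3.21, SE 0.60, adjusted p = 0.00188) and held with each library left out. Tnip3, which restrains NF-kB, was lower (-2.26, SE 0.65, adjusted p = 0.0375), but at 0.255 without the Ly6Clow library of mouse 23 and 0.0817 to 0.166 without a Ly6Chigh library, with a fold change of 0.37 under spike-in scaling.

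Cytokine receptors gave 4 higher and 8 lower of 60 tested (1 and 6 without the Ly6Clow library of mouse 23). On the Ly6Clow side stood Il27ra, a subunit of the interleukin-27 receptor (chromosome 8, 84030294 to 84042589), with 112, 96.4 and 43.8 CPM against 3.37, 4.69 and 4.39 CPM in Ly6Chigh monocytes (log2 fold change -4.32, SE 0.61, adjusted p = 0.00011). Il2ra, Il2rb and Il7r, chains of the receptors for interleukins 2 and 7, were lower in Ly6Chigh as well (log2 fold changes -4.69, -3.34 and -3.74, adjusted p = 0.000206, 0.000403 and 0.000548). All 4 calls held with each library left out. These receptors are typical of T and NK cells, whose marker sums moved the same way, and their part was not tested. Il2rb is itself counted in the NK sum. On the Ly6Chigh side, besides Tnfrsf21, Csf3r, the receptor for granulocyte colony-stimulating factor, gave 281, 496 and 497 CPM against 110, 136 and 293 CPM (1.24, SE 0.37, adjusted p = 0.0462). Csf2rb2, a chain of the interleukin-3 receptor, gave 71.9, 52.7 and 69.8 CPM against 0, 17 and 24.9 CPM (2.19, SE 0.63, adjusted p = 0.0393). The receptor tyrosine kinase Met gave 24.2, 15.2 and 40.1 CPM against 0, 0 and 5.03 CPM (3.86, SE 1.11, adjusted p = 0.0393). None of the last 3 held throughout. Csf3r reached 0.138 to 0.159 without the Ly6Chigh library of mouse 23 or 24 or the Ly6Clow library of mouse 22 or 23, Csf2rb2 reached 0.067 to 0.106 without any Ly6Chigh library or the Ly6Clow library of mouse 23, and Met reached 0.0621 to 0.133 in every such fit but that without the Ly6Clow library of mouse 24. Neutrophil markers, among which Csf3r counts, summed to 2101 to 3140 CPM in Ly6Chigh and 978 to 1176 CPM in Ly6Clow replicates.

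Complement genes were called in both directions, 4 higher and 5 lower of 28 tested (32.1%). C3, the protein at which all complement pathways meet (chromosome 17, 57203970 to 57228136), gave 614, 947 and 1112 CPM in Ly6Chigh against 160, 95.2 and 109 CPM in Ly6Clow monocytes (log2 fold change 2.88, SE 0.45, adjusted p = 0.000343), and Cfb, the protease that pairs with it, gave 5.06, 19.3 and 8.15 CPM against 0.943, 0 and 1.18 CPM (3.78, SE 0.73, adjusted p = 0.0023). C1ra, a protease of the classical pathway, was at 10.1, 8.79 and 5.02 CPM in Ly6Chigh and 0 in Ly6Clow, at least 6.91-fold higher against a floor of 3 counts per library. C1q, which starts that pathway, had all 3 chains lower in Ly6Chigh. C1qa gave 145, 189 and 25.5 CPM in Ly6Clow against 16.9, 2.93 and 1.67 CPM (-4.17, SE 0.59, adjusted p = 0.00011). C1qb gave 595, 339 and 94.7 CPM against 76.4, 52.1 and 12.5 CPM (-2.89, SE 0.50, adjusted p = 0.000898), and C1qc gave 360, 150 and 58.6 CPM against 29.2, 18.2 and 3.76 CPM (-3.53, SE 0.53, adjusted p = 0.000195). In each mouse the C1q chains were higher in the Ly6Clow cells, and each chain was lowest in mouse 24 in both populations. These 6 calls held with each library left out. Fcnb, a ficolin that starts the lectin pathway, was at 5.62, 10.5 and 4.39 CPM in Ly6Chigh and 0 in Ly6Clow, at least 5.94-fold higher against the floor, but its call (adjusted p = 0.0412) was lost in 5 of the 6 fits with a library left out (0.06 to 0.112), all but that without the Ly6Clow library of mouse 24. Fcna, the other ficolin, went the opposite way, at 25.5, 101 and 42.6 CPM in Ly6Clow against 1.12, 4.69 and 2.51 CPM (adjusted p = 0.0261, lost without any Ly6Chigh library, at 0.0835 to 0.118, or the Ly6Clow library of mouse 23, at 0.0927). Properdin, encoded by Cfp, overlapped (383, 432 and 271 CPM against 676, 1197 and 228 CPM, adjusted p = 0.178).

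C1q chains are also made by tissue macrophages, so 23 genes of resident macrophages were summed, a list drawn up after values had been seen. The sum was 190, 138 and 70.9 CPM in Ly6Chigh and 2203, 2203 and 466 CPM in Ly6Clow replicates of the same mice, and the C1q chains are part of it. Fcrls, Alox15, Cxcl13, Ltbp1, Prg4, Fcna, Itga6 and Icam2, called lower in Ly6Chigh in these same data, are also in the list. The difference in the sum is therefore not an independent result. Among the other members of the list Timd4, a receptor for dying cells, was at 0 in all Ly6Chigh replicates and at 5.66, 12.7 and 6.51 CPM in Ly6Clow, at least 6.12-fold higher against the floor (adjusted p = 0.0107), lost without the Ly6Chigh library of mouse 23 (0.055) or 24 (0.0777). Adamdec1, a secreted protease of macrophages, gave 25, 123 and 22.5 CPM against 10.7, 0 and 1.05 CPM (adjusted p = 0.00968), lost without the Ly6Chigh library of mouse 23 (0.0711) or 24 (0.0819) or the Ly6Clow library of mouse 23 (0.0898). Gata6 and Vcam1 were at 0 in all 6 replicates and Mertk reached at most 2.30 CPM. Spic gave 6.13, 36.6 and 10.4 CPM in Ly6Clow against 22.5, 4.69 and 6.06 CPM in Ly6Chigh, and Cd163 gave 9.43 to 13.9 CPM against 0 to 12.3 CPM (adjusted p = 0.814 and 0.717). Cd5l gave 62.7, 10.4 and 2.66 CPM, Marco 22.2, 3.47 and 0 CPM and Vsig4 25.5, 0 and 4.44 CPM in Ly6Clow, against 0 in all Ly6Chigh replicates. The part of macrophages in the C1q values was not tested.

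Matrix genes gave 6 higher and 3 lower of 48 tested (9 and 4 with the replicate block, 4 and 0 without the Ly6Clow library of mouse 23). The list as a whole did not lean, with a median log2 fold change of 0.05 against 0.02 for all genes and 25 of the 48 above 0. Tgfbi, a collagen-binding protein induced by TGF-beta, gave 1506, 1924 and 1375 CPM in Ly6Chigh against 280, 856 and 538 CPM in Ly6Clow monocytes (log2 fold change 1.52, SE 0.32, adjusted p = 0.00453). Mmp8, the neutrophil collagenase, gave 829, 660 and 244 CPM against 8.49, 84.4 and 19.2 CPM (3.95, SE 0.88, adjusted p = 0.0072). Both held with each library left out, as did Vcan, and the groups were apart in all 3. Mmp8 is also a neutrophil marker, and neutrophil markers, Mmp8 among them, summed to 2101 to 3140 CPM against 978 to 1176 CPM. Prg4, the lubricating proteoglycan lubricin, was lower, at 86.8, 140 and 13.6 CPM in Ly6Clow against at most 0.562 CPM (adjusted p = 0.0449), but lost in every fit with a library left out (0.0707 to 0.177) except that without the Ly6Clow library of mouse 24. Coagulation and fibrinolysis gave no call among 25 tested (2 higher with the replicate block, 1 without the Ly6Clow library of mouse 23), with factor X (F10) at 156, 207 and 115 CPM against 107, 55.5 and 55 CPM (adjusted p = 0.104).

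The called RNAs of MHC class II presentation lay on the Ly6Clow side, and neither protein nor presentation was measured here. Of 21 tested members 4 were lower in Ly6Chigh monocytes and none higher, a count of 4 also without the Ly6Clow library of mouse 23 and of 8 with the replicate block. H2-Aa, the alpha chain of I-A, gave 1284, 1474 and 1119 CPM in Ly6Chigh against 2300, 9089 and 3663 CPM in Ly6Clow monocytes (log2 fold change -1.96, SE 0.39, adjusted p = 0.00294, and 0.22 under spike-in scaling). H2-Eb1, the beta chain of I-E, gave 545, 610 and 476 CPM against 1611, 6220 and 2536 CPM (-2.67, SE 0.38, adjusted p = 0.000121). H2-Oa, a chain of the H2-O protein that restrains peptide loading (chromosome 17, 34092340 to 34095234), gave 3.93, 3.51 and 3.76 CPM against 49.5, 78.7 and 39.1 CPM (-3.88, SE 0.74, adjusted p = 0.00221). All 3 held with each library left out, and in none did the groups overlap. Cd83, which stabilizes class II at the surface, gave 35.4, 11.1 and 23.4 CPM against 92.9, 77.1 and 255 CPM (-2.60, SE 0.55, adjusted p = 0.00528), lost without the Ly6Chigh library of mouse 23 (0.0614).

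The other class II chains had like values but missed the threshold. H2-Ab1 gave 2272, 2284 and 1516 CPM against 4156, 4793 and 5237 CPM (adjusted p = 0.0581), and the invariant chain Cd74 gave 7076, 7319 and 4593 CPM against 9012, 26046 and 11327 CPM (adjusted p = 0.0563). Ciita, the master activator of class II transcription, did not separate the populations (64.6, 88.4 and 81.1 CPM against 27.8, 74.8 and 123 CPM, adjusted p = 1). The median over the list was -0.65, and it was -0.23 without the Ly6Clow library of mouse 23 and 1.55 under spike-in scaling, where the median of all genes was 1.69. B cells and dendritic cells also carry class II, and their marker sums were 1303 to 1481 and 1068 to 2801 CPM in Ly6Clow against 636 to 839 and 955 to 1193 CPM in Ly6Chigh replicates. Their part was not tested.

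Class II promoters hold a conserved Y box, the letters CTGATTGG, bound by the factor NF-Y beside the sites that Ciita acts through. Searched on both strands of the 250 bases before each RefSeq start, these letters were in 3.83% of the 32851 promoters. Counted by gene symbol, where 1 matching promoter of a gene suffices, they were in 4.43% of 27025. By the same count they were in all 3 called class II genes that the table holds and in 1 of 10 not called. The 3 promoters are shown because their genes moved together, with the Y box in capitals, and it begins 51, 62 and 46 bases before the start of H2-Aa (chr17:34287824-34288073, minus strand), H2-Eb1 (chr17:34305617-34305866, plus strand) and H2-Oa (chr17:34092129-34092378, plus strand) in GRCm38.p6.
H2-Aa: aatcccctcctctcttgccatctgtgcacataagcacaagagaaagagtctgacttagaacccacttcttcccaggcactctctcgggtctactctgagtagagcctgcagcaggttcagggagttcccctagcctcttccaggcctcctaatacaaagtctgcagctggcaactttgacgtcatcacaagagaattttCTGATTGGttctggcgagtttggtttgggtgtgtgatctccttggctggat
H2-Eb1: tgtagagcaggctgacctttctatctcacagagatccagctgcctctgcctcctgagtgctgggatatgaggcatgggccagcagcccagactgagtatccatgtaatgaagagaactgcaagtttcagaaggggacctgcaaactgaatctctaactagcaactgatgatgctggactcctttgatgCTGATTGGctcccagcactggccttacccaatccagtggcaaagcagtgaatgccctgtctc
H2-Oa: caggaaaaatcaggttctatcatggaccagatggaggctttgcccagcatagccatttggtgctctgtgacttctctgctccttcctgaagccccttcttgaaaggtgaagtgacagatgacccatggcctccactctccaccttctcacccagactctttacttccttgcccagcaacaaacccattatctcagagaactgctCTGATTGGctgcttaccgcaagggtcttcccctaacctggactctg

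Class I presentation gave 5 lower and none higher of 29 tested, 3 and none without the Ly6Clow library of mouse 23, and 7 and 2 with the replicate block. H2-Q7, a nonclassical class I molecule, gave 77.5, 19.9 and 41.0 CPM in Ly6Chigh against 295, 261 and 434 CPM in Ly6Clow monocytes (log2 fold change -2.84, SE 0.36, adjusted p = 2.26e-05), and its neighbor H2-Q6 gave 33.1, 10.5 and 20.7 CPM against 71.7, 94.1 and 272 CPM (-2.77, SE 0.42, adjusted p = 0.000206). These near-identical copies held with each library left out, although reads may be split between them. B2m, the light chain of all class I molecules, gave 3580, 3225 and 2688 CPM against 5286, 7194 and 5049 CPM (-0.88, SE 0.27, adjusted p = 0.0487), and Psmb9, a subunit of the immunoproteasome, gave 190, 209 and 185 CPM against 302, 657 and 318 CPM (-1.13, SE 0.31, adjusted p = 0.0282). Both were lost without the Ly6Clow library of mouse 23 (0.216 and 0.266) or any Ly6Chigh library (0.101 to 0.191 and 0.11 to 0.112), B2m also without the Ly6Clow library of mouse 22 (0.0861), and both had fold changes of 0.98 under spike-in scaling. The heavy chains H2-K1 (adjusted p = 0.095) and H2-D1 (adjusted p = 0.944) did not pass.

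The list of eicosanoid synthesis and receptors gave 3 higher and 6 lower of 36 tested. Ptgs1, the constitutive cyclooxygenase, gave 65.6, 102 and 23.1 CPM in Ly6Clow against 11.8, 1.76 and 11.9 CPM in Ly6Chigh monocytes (log2 fold change -2.84, SE 0.48, adjusted p = 0.000734, and 0.01 under spike-in scaling). Ltc4s, which makes the first cysteinyl leukotriene, was at 0 in all Ly6Chigh replicates and at 11.3, 13.5 and 2.66 CPM in Ly6Clow, at least 6.75-fold higher against the floor. Ltc4s did not pass the expression filter in the blood replicates alone. Alox15, a lipoxygenase of resident macrophages and eosinophils, gave 392, 388 and 52.7 CPM against 0, 6.44 and 0 CPM (-7.25, SE 1.34, adjusted p = 0.00166). These 3 calls held with each library left out. Ephx1, an epoxide hydrolase, was lower too (-2.20, SE 0.51, adjusted p = 0.0101, and 0.0843 without the Ly6Chigh library of mouse 24).

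On the Ly6Chigh side of the same system stood the phospholipase that releases arachidonic acid and a leukotriene receptor. Pla2g4a gave 66.3, 71.5 and 31.4 CPM in Ly6Chigh against 16.5, 7.33 and 26.9 CPM in Ly6Clow monocytes (log2 fold change 1.72, SE 0.40, adjusted p = 0.0103), lost without the Ly6Chigh library of mouse 23 (0.0608). Cysltr1, the receptor for cysteinyl leukotrienes, gave 59.5, 65 and 50.8 CPM against 9.91, 5.01 and 34.0 CPM (1.82, SE 0.44, adjusted p = 0.0143), lost without the Ly6Chigh library of mouse 23 (0.0597) or the Ly6Clow library of mouse 22 (0.0642). The ranges were apart for both. Ptgr1, which inactivates prostaglandins and leukotriene B4, gave 16.9, 32.2 and 25.1 CPM against 8.02, 0 and 5.33 CPM (2.47, SE 0.72, adjusted p = 0.0417), lost without the Ly6Chigh library of mouse 23 (0.128) or 24 (0.103) or the Ly6Clow library of mouse 23 (0.0515). Alox5, which begins leukotriene synthesis, and its partner Alox5ap overlapped (22.5, 42.2 and 51.8 CPM against 8.49, 30.8 and 188 CPM, adjusted p = 0.523, and 793, 917 and 676 CPM against 616, 761 and 525 CPM, adjusted p = 0.425).

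The scavenger receptors for modified lipoproteins went in opposite directions. Msr1, the class A scavenger receptor (chromosome 8, 39581685 to 39642673), gave 390, 422 and 334 CPM in Ly6Chigh against 19.8, 4.24 and 87.9 CPM in Ly6Clow monocytes (log2 fold change 3.34, SE 0.58, adjusted p = 0.000903). Cd36, the class B receptor and fatty acid transporter, gave 162, 38.1 and 54.3 CPM against 562, 686 and 653 CPM (-2.91, SE 0.49, adjusted p = 0.000639). Both separated the populations completely and held with each library left out. Scarf1, a scavenger receptor that binds C1q, gave 15.2, 29.3 and 14.2 CPM against 0, 0.386 and 9.17 CPM (adjusted p = 0.0469), lost in every fit with a library left out (0.0631 to 0.179) except that without the Ly6Clow library of mouse 24. Sterol handling showed small steps, with Soat1, which esterifies cholesterol, at 606, 491 and 452 CPM against 240, 190 and 303 CPM (1.08, SE 0.30, adjusted p = 0.033), lost in the same 5 fits (0.064 to 0.109). Npc2, which exports cholesterol from lysosomes, gave 707, 1027 and 902 CPM against 397, 693 and 440 CPM (0.78, SE 0.22, adjusted p = 0.0306), lost without the Ly6Chigh library of mouse 23 (0.0872) or 24 (0.0958) or the Ly6Clow library of mouse 22 (0.0828). Apoe gave 4090, 3652 and 2428 CPM against 3684, 694 and 3290 CPM and overlapped (adjusted p = 0.671).

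The list of purinergic and adenosine signaling, by which cells sense extracellular nucleotides, had 5 of 25 tested called, 3 of them nucleotide receptors. P2ry13 and P2ry2, receptors for ADP and for ATP and UTP, were at 0 in all Ly6Clow replicates and at 17.4, 22.8 and 11.9 CPM and at 5.62, 11.7 and 5.23 CPM in Ly6Chigh, at least 15.1-fold and 6.52-fold higher against the floor. P2rx4, an ATP-gated channel, gave 98.3, 149 and 129 CPM against 34.9, 6.94 and 66.9 CPM (log2 fold change 1.78, SE 0.43, adjusted p = 0.0143), lost without the Ly6Chigh library of mouse 23 (0.0652) or the Ly6Clow library of mouse 22 (0.0504). The Ly6Chigh values of all 3 lay above the Ly6Clow range. P2ry10, a lysophospholipid receptor of lymphocytes, gave 12.7, 32.8 and 17.2 CPM in Ly6Clow against 0.562, 0 and 1.25 CPM (-4.71, SE 0.86, adjusted p = 0.0015). Slc29a1, a transporter that takes up adenosine, gave 129, 182 and 119 CPM against 43.3, 29.3 and 46.4 CPM (-1.85, SE 0.28, adjusted p = 0.000195, and 0.26 under spike-in scaling). The ectonucleotidase Entpd1 gave 27.5, 69.7 and 107 CPM against 30.7, 111 and 104 CPM (adjusted p = 0.754).

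Lysosomal genes gave 7 higher and 4 lower of 67 tested (16.4%), with 44 of them above 0 in log2 fold change and a median of 0.25. Ctsc, the protease that activates granule serine proteases, gave 3147, 3727 and 1925 CPM in Ly6Chigh against 648, 1725 and 936 CPM in Ly6Clow monocytes (log2 fold change 1.41, SE 0.31, adjusted p = 0.00719) and held with each library left out. Gusb, the beta-glucuronidase, gave 379, 436 and 322 CPM against 177, 101 and 215 CPM (1.20, SE 0.29, adjusted p = 0.014), lost without the library of mouse 23 of either population (0.0608 for Ly6Chigh, 0.0566 for Ly6Clow). Atp6v1b2, a subunit of the proton pump, gave 698, 730 and 696 CPM against 394, 205 and 358 CPM (1.15, SE 0.31, adjusted p = 0.0262), lost without the Ly6Chigh library of mouse 23 (0.0693) or 24 (0.0732) or the Ly6Clow library of mouse 23 (0.104). All 3 had separate groups. Members on the other side included Ctsw and Cst7, a protease and a protease inhibitor of cytotoxic lymphocytes, at 72.6, 92.5 and 85.5 CPM against 15.2, 2.93 and 6.27 CPM (adjusted p = 0.00147) and at 6.60, 79.4 and 22.2 CPM against 2.81, 1.17 and 3.14 CPM (adjusted p = 0.00284). They moved with the NK marker sum (814 to 1094 CPM in Ly6Clow, 57.4 to 187 CPM in Ly6Chigh), whose part was not tested. The abundant cathepsins overlapped, with Ctsb at 3927, 3851 and 2809 CPM against 3691, 3797 and 4667 CPM (adjusted p = 0.606) and Ctsd at 702, 765 and 548 CPM against 885, 524 and 725 CPM (adjusted p = 0.902).

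Neutrophil-type granule proteins and alarmins gave 3 higher and 1 lower of 33 tested, and 8 higher with the replicate block. Pglyrp1, a bactericidal protein that binds peptidoglycan, was the lower one, at 127, 79.7 and 77.6 CPM in Ly6Chigh and 843, 731 and 810 CPM in Ly6Clow monocytes (log2 fold change -3.07, SE 0.51, adjusted p = 0.000548), and it held with each library left out. S100a8 and S100a9, the chains of calprotectin, did not pass, although S100a9 had groups that were apart (245, 76.7 and 62.7 CPM against 413, 199 and 245 CPM, adjusted p = 0.682, and 203, 69.1 and 59.4 CPM against 456, 393 and 302 CPM, adjusted p = 0.505). Elane and Mpo, proteins of neutrophil precursors, were at or near 0 in all replicates, and Lyz2 gave 28549, 33521 and 18773 CPM against 14310, 21765 and 14348 CPM (adjusted p = 0.27).

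Among 76 lineage transcription factors 2 were higher and 6 lower (1 and 3 without the Ly6Clow library of mouse 23). Irf8, which directs monocyte and dendritic cell fate, gave 572, 648 and 704 CPM in Ly6Chigh against 215, 57.8 and 323 CPM in Ly6Clow monocytes (log2 fold change 1.69, SE 0.42, adjusted p = 0.0177), lost without the Ly6Chigh library of mouse 23 (0.0574) or 24 (0.0654) or the Ly6Clow library of mouse 23 (0.0552). Tfec, a factor of the Mitf family, was at 0 in all Ly6Clow replicates and at 0.562, 4.69 and 2.93 CPM in Ly6Chigh, at least 2.36-fold higher against the floor, or 1.51-fold without mouse 23. Tfec rests on few counts and did not pass the expression filter in the blood replicates alone. Tcf7l2, an effector of Wnt signaling, gave 79.7, 30.5 and 69.5 CPM in Ly6Clow against 26.4, 10.5 and 10.5 CPM (-1.93, SE 0.48, adjusted p = 0.0161), lost without the Ly6Chigh library of mouse 23 (0.116) or 24 (0.106) or the Ly6Clow library of mouse 22 (0.0596). Bhlhe40, a repressor that limits interleukin-10, gave 175, 125 and 284 CPM against 102, 35.7 and 54.6 CPM (-1.61, SE 0.41, adjusted p = 0.0188), lost without the Ly6Chigh library of mouse 23 (0.148) or 24 (0.102) or the Ly6Clow library of mouse 24 (0.0503). Every one of these factors had separate groups. Id2, an inhibitor of E proteins, was lower (-1.41, SE 0.35, adjusted p = 0.018), lost without the Ly6Chigh library of mouse 23 (0.055) or 24 (0.123) or the Ly6Clow library of mouse 23 (0.15), with a fold change of 0.71 under spike-in scaling. Ets1, a lymphocyte factor, was lower (-3.19, SE 0.68, adjusted p = 0.00558, and 0.055 without the Ly6Chigh library of mouse 23) and moved with the T marker sum (36.9 to 319 against 1447 to 2190 CPM), whose part was not tested. Klf4, a factor that blood monocytes need, was lower in Ly6Chigh cells (35.4, 11.7 and 29.5 CPM against 117, 144 and 52.7 CPM, adjusted p = 0.0433), but at 0.0808 to 0.229 in every fit with a library left out except that without the Ly6Clow library of mouse 24, and with a fold change of 0.47 under spike-in scaling. Spi1, the myeloid master factor, overlapped (1148, 1009 and 813 CPM against 854, 104 and 834 CPM, adjusted p = 0.498).

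Notch signaling in the marrow drives the conversion of Ly6Chigh into Ly6Clow monocytes, and 1 of its 31 tested members was higher and 1 lower. Dtx1, a Notch target and ubiquitin ligase (chromosome 5, 120680202 to 120711927), was at 0 in all Ly6Chigh replicates and at 11.3, 57.8 and 5.03 CPM in Ly6Clow, at least 18.2-fold higher against the floor, or 6.03-fold without mouse 23 (adjusted p = 0.0215), lost without any Ly6Chigh library (0.0719 to 0.112) or the Ly6Clow library of mouse 23 (0.093). Its relative Dtx4 went the other way, at 16.3, 8.79 and 8.36 CPM against 0.943, 0 and 4.74 CPM (adjusted p = 0.0473), lost in every fit with a library left out (0.0827 to 0.141) except that without the Ly6Clow library of mouse 24. Hes1, the classical target, gave 16.3, 2.93 and 4.81 CPM against 87.3, 18.5 and 38.5 CPM with no overlap and an adjusted p of 0.0635. The receptor Notch2 overlapped (21.9, 34.0 and 204 CPM against 43.4, 275 and 103 CPM, adjusted p = 0.695).

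The TGF-beta and BMP list gave 2 higher and 3 lower of 39 tested, among them Tgfbi, Ltbp1 and Id2 above. Eng, a co-receptor of TGF-beta, gave 5.62, 19.3 and 12.5 CPM in Ly6Chigh against 3.30, 0 and 3.85 CPM in Ly6Clow monocytes (log2 fold change 2.36, SE 0.64, adjusted p = 0.0291), lost without the Ly6Chigh library of mouse 23 (0.136) or 24 (0.0809). Smurf1, a ubiquitin ligase of BMP receptors, rested on the Ly6Clow library of mouse 23 (0, 127 and 6.81 CPM against 0.562, 4.69 and 1.88 CPM, adjusted p = 0.0438, and 0.881 without it). It was also lost without any Ly6Chigh library (0.0978 to 0.165) and with the replicate block (0.0651), and limma-voom gave it the other sign. Tgfb1 gave 295, 330 and 260 CPM against 121, 1.16 and 124 CPM, with separate groups but an adjusted p of 0.242.

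Guidance receptors gave 3 higher and 1 lower of 21 semaphorins, plexins and neuropilins tested (0 and 1 without the Ly6Clow library of mouse 23). Sema4a, a semaphorin of immune cells, gave 448, 503 and 635 CPM in Ly6Chigh against 84.9, 27.8 and 325 CPM in Ly6Clow monocytes (log2 fold change 1.86, SE 0.49, adjusted p = 0.0256), lost without the Ly6Chigh library of mouse 23 (0.0657) or 24 (0.0993) or the Ly6Clow library of mouse 22 (0.106) or 23 (0.0589). Cd72, a receptor for Sema4d that B cells carry, gave 18.9, 42.4 and 12.1 CPM in Ly6Clow against 3.37, 0 and 0.627 CPM (-4.33, SE 0.57, adjusted p = 4.65e-05) and held with each library left out. Its groups were apart, and B cell markers summed to 1303 to 1481 CPM in Ly6Clow against 636 to 839 CPM in Ly6Chigh replicates, a part not tested. Capg, which caps actin filaments, was higher, at 441, 829 and 616 CPM against 136, 195 and 115 CPM (2.08, SE 0.25, adjusted p = 1.59e-05), and it too held throughout. Evl, an actin regulator, was lower (-1.55, SE 0.35, adjusted p = 0.00787), lost without the Ly6Chigh library of mouse 23 (0.0744) or the Ly6Clow library of mouse 22 (0.0672), with a fold change of 0.22 under spike-in scaling.

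Cytosolic ribosomal proteins held the most calls of the 37 lists, with 35 of 82 tested lower in Ly6Chigh monocytes (42.7%), none higher and 81 of them at or below 0. Rpl12, a protein of the large subunit, gave 89.9, 66.2 and 55.8 CPM in Ly6Chigh against 224, 363 and 144 CPM in Ly6Clow monocytes (log2 fold change -1.79, SE 0.34, adjusted p = 0.00189). Rps24, of the small subunit, gave 180, 165 and 139 CPM against 417, 670 and 265 CPM (-1.48, SE 0.30, adjusted p = 0.00303). Both held with each library left out, as did Rpl5 and Rpl13a (-1.41 and -1.27, adjusted p = 0.00375 and 0.00428). The median over the list was -0.78, -1.17 and -0.60 within mice 22, 23 and 24, and its summed level was 18168 to 24785 CPM in Ly6Chigh and 41538, 53225 and 27118 CPM in Ly6Clow replicates.

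That count moved with the processing more than most. It was 57 with the replicate block, 8 without the Ly6Clow library of mouse 23, and 0 under spike-in scaling, where the list's median was 1.15 against 1.69 for all genes, which is -0.54 relative to them. With TMM the list's median was -0.89 against 0.02 for all genes. T cell marker sums (36.9 to 319 CPM against 1447 to 2190 CPM) moved with the same groups, and their part was not tested. Many ribosomal protein genes have processed pseudogenes that can share their reads, so single values are uncertain.

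**Figure D5:**
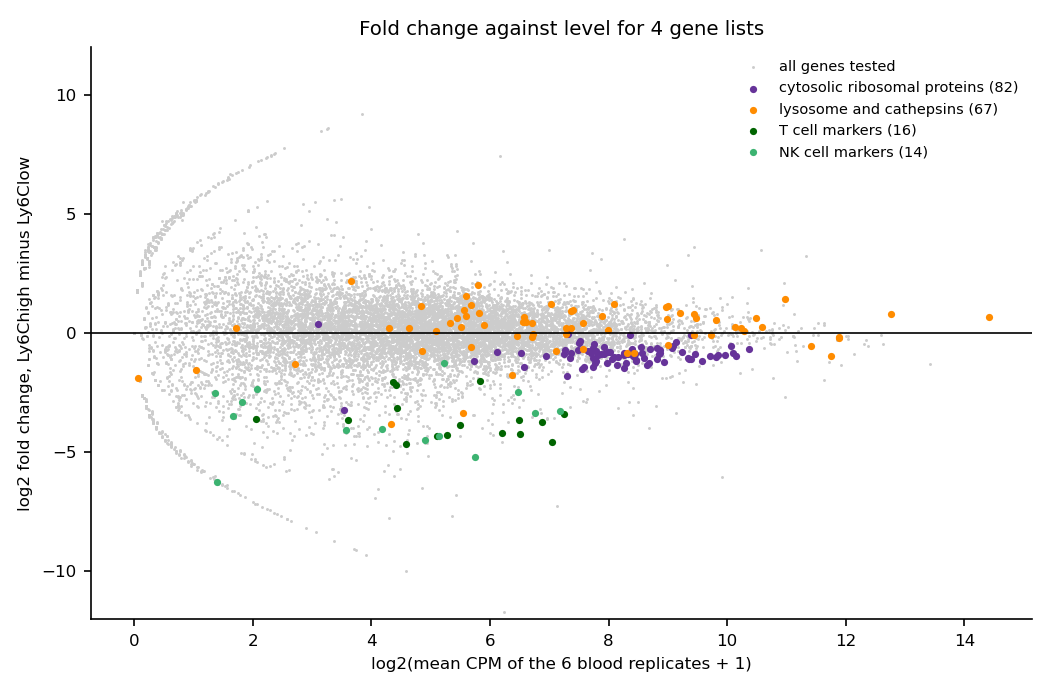
Log2 fold change of Ly6Chigh minus Ly6Clow (vertical axis) against log2(mean CPM of the 6 replicates + 1) for all genes tested (gray) and 4 lists. Ribosomal proteins (purple) form a narrow band just below 0 with a median of -0.89, lysosomal genes (orange) scatter around 0 with a median of 0.25, and T and NK cell markers (greens) lie far below with medians of -3.71 and -3.41.

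Cell cycle and DNA replication genes gave 14 lower and none higher of 86 tested, a median of -0.68, and 11 lower without the Ly6Clow library of mouse 23. The median was -0.28, 0 and -0.67 within mice 22, 23 and 24, and 32 of the 86 had a fold change above 0. Of the 14 called, 8 had groups without overlap. T and NK marker sums, given above, moved the same way, and their part was not tested. Ccnd2, cyclin D2, gave 147, 92.1 and 170 CPM in Ly6Clow against 43.3, 3.51 and 12.8 CPM in Ly6Chigh monocytes (log2 fold change -2.80, SE 0.51, adjusted p = 0.00147) and held with each library left out. Tubb5 and Tuba1b, tubulins, gave 113, 281 and 105 CPM against 36.5, 47.4 and 66.3 CPM (adjusted p = 0.00675) and 143, 374 and 157 CPM against 87.6, 112 and 76.1 CPM (adjusted p = 0.00603). Without the Ly6Clow library of mouse 23 they were at 0.0896 and 0.0857, Tubb5 was also lost without the Ly6Chigh library of mouse 22 (0.0519) or 23 (0.0602) and Tuba1b without that of mouse 24 (0.0534). Pold1, the catalytic subunit of DNA polymerase delta, was lower (-2.05, SE 0.42, adjusted p = 0.00431, and 0.0585 without the Ly6Chigh library of mouse 23). Markers of dividing cells were scarce, with Mki67 at most 9.37 CPM and Top2a at most 6.51 CPM in any replicate and neither called (adjusted p = 0.635 and 0.533). Under spike-in scaling the list's median was 1.03 against 1.69 for all genes, and Tubb5, Tuba1b and Pold1 had fold changes of 0.75, 0.83 and 0.28.

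Of 39 tested members of the BCL2 family and caspases 4 were lower and none higher, and 5 and 4 with the replicate block, while the median was 0.49 with 24 above 0. Bcl2a1b, an A1 antiapoptotic protein, gave 29.2, 7.61 and 7.94 CPM in Ly6Chigh against 167, 87.9 and 90.0 CPM in Ly6Clow monocytes (log2 fold change -2.98, SE 0.39, adjusted p = 4.65e-05), and Bcl2a1d gave 43.8, 13.5 and 9.20 CPM against 140, 169 and 112 CPM (-2.69, SE 0.47, adjusted p = 0.000986). Both held with each library left out, and the groups were apart. Bcl2a1a was lower as well (-2.23, SE 0.55, adjusted p = 0.0152), lost without the Ly6Chigh library of mouse 23 (0.109) or 24 (0.107) or the Ly6Clow library of mouse 22 (0.057). The A1 genes are near-identical, so they count as 1 signal rather than 3. Diablo, which blocks inhibitors of caspases, was lower (-1.37, SE 0.32, adjusted p = 0.0105), lost without the Ly6Chigh library of mouse 23 (0.0979) or 24 (0.0817) or the Ly6Clow library of mouse 23 (0.126), with a fold change of 0.92 under spike-in scaling. Bcl2, known to be raised in nonclassical monocytes, gave 51.1, 17.6 and 27 CPM against 92.5, 64.8 and 151 CPM with separate groups (adjusted p = 0.0757).

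Metabolic families gave few calls. In glycolysis 1 of 26 tested was higher and 2 were lower, and all 3 are isoform genes. Ldhb, the heart-type lactate dehydrogenase (chromosome 6, 142490249 to 142507957), gave 66.3, 80.2 and 57.5 CPM in Ly6Chigh against 14.6, 0 and 6.81 CPM in Ly6Clow monocytes (log2 fold change 3.27, SE 0.60, adjusted p = 0.00147). Eno3, the muscle-type enolase, gave 118, 48.0 and 65.2 CPM against 484, 530 and 690 CPM (-2.88, SE 0.39, adjusted p = 5.91e-05), and Aldoc, the brain-type aldolase, gave 3.37, 3.51 and 4.18 CPM against 12.7, 83.3 and 15.1 CPM (-3.29, SE 0.59, adjusted p = 0.00124). All 3 held with each library left out and separated the populations. The housekeeping enzyme Gapdh gave 869, 831 and 548 CPM against 1014, 1328 and 1046 CPM and was not called (adjusted p = 0.131).

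Oxidative phosphorylation was called at 3.80% of 79 tested, below the background, with 11 lower under the replicate block and none called without the Ly6Clow library of mouse 23. Ndufa12 and Uqcrh, subunits of complexes I and III, were lower at adjusted p = 0.0318 and 0.0486 and lost their calls in every fit with a library left out (0.0576 to 0.26 and 0.0546 to 0.332) except that without the Ly6Clow library of mouse 24, and their fold changes under spike-in scaling were 1.01 and 1.16. In iron, heme and redox genes 2 of 46 were lower (4.35%). Hfe, which tunes iron uptake, gave 289, 157 and 166 CPM in Ly6Chigh against 579, 870 and 805 CPM in Ly6Clow monocytes (log2 fold change -1.88, SE 0.27, adjusted p = 0.000121) and held with each library left out. Sod1, the cytosolic superoxide dismutase, was lower at adjusted p = 0.0247, lost without the Ly6Chigh library of mouse 23 (0.155) or 24 (0.116) or the Ly6Clow library of mouse 23 (0.14), with a fold change of 0.89 under spike-in scaling. Heme oxygenase, Hmox1, overlapped (317, 269 and 157 CPM against 218, 28.1 and 197 CPM, adjusted p = 0.668).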

How the data were processed

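Poly(A) RNA of 8 sorted populations was sequenced, and the 6 blood replicates were compared here. Per the labels and methods, the authors aligned reads to GRCm38 with STAR, removed duplicates with Picard (version 1.8.4 in the submitters' processing notes), and deposited raw counts per gene from HTSeq with spike-in RNAs. The library kit does not mark strand, and the strand setting of the counting is not given in the sources used here, so overlapping genes on opposite strands cannot be told apart.

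Genes passing edgeR's filterByExpr were fitted over the 28 replicates of 8 populations with TMM factors and a robust quasi-likelihood model (edgeR 4.0.16, R 4.3.3), and p-values were adjusted by the Benjamini-Hochberg method at 0.05. CPM values use TMM library sizes. limma 3.58.1 and DESeq2 1.42.0 were alternatives, and the steps were tested on simulated data. Each mouse gave both populations, so the numbers pair the samples. Deviations from the group means correlated at 0.108, 0.0869 and 0.255 within mice and at -0.134 to 0.0147 between them. Lists and members were chosen with earlier results of these data known. Genes named were the markers, the 12 called genes per direction with the widest gap between groups (mean of 20 CPM or more in the higher group) and the called genes of each list with the smallest p, and uncalled members of known role were added. A few genes and 1 list are not reported here. Folds against a group at 0 use a floor of 3 counts per library, which covers counting error only. Positions are from GENCODE vM21, which holds 96.1% of the symbols tested once, and promoters are from RefSeq. P-values rest on a spread estimated over all 28 replicates of the 8 populations, not on that between the 3 mice of each blood group alone.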

Additional observations from a re-analysis of the deposited data

How the results depend on the processing

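The number of called genes was 649, with 227 higher and 422 lower in Ly6Chigh monocytes. It was 1369 (519 and 850) with DESeq2 and 243 (65 and 178) with limma-voom. In fits of the blood replicates alone it was 0 (0 and 0) with edgeR, 193 (52 and 141) with DESeq2 and 184 (50 and 134) with limma-voom. With a filter of 1 count, which tested 22327 genes, it was 397 (151 and 246). The replicate block, which pairs the populations of a mouse, gave 364 higher genes of 922, kept 153 of the 157 called genes followed by name and changed no call among the named genes besides Cd177, Chil3, F13a1, Fn1 and Mgst1, which it gained, and Smurf1, Klra17, Apoc1 and Plxna1, which it lost (adjusted p = 0.0651, 0.0646, 0.0684 and 0.0646). DESeq2 size factors gave 669 calls and a filter of 10 counts in every blood library 559. Library sizes summed after the filter, an alternative chosen after seeing the data, gave 607, of which 43.8% were higher against 35.0% in the fit as reported. Leaving out each replicate in turn gave 224 to 2444 calls, 89 to 1522 of them higher and 135 to 922 lower, and without the Ly6Clow library of mouse 24 the higher calls were 62.3% of the total. The cause of these differences was not tested.

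Scaling to spike-in RNAs gave 36 calls, 35 higher and 1 lower, and shifted the all-gene median from 0.02 to 1.69 (log2), so that 27 of the called genes followed by name had the other sign. Their log2 fold changes were then 0.98 for B2m, 0.87 for Ccl3, 0.12 for Cxcr4, 0.92 for Diablo, 0.22 for Evl, 0.84 for Fcgrt, 0.22 for H2-Aa, 0.21 for Hcst, 0.71 for Id2, 0.0554 for Ifi27, 0.84 for Ifi44, 0.47 for Klf4, 1.01 for Ndufa12, 1.04 for P4ha1, 0.28 for Pold1, 0.98 for Psmb9, 0.0064 for Ptgs1, 0.41 for Rpl12, 0.73 for Rpl13a, 0.81 for Rpl5, 0.73 for Rps24, 0.26 for Slc29a1, 0.89 for Sod1, 0.37 for Tnip3, 0.83 for Tuba1b, 0.75 for Tubb5 and 1.16 for Uqcrh, all below the median of all genes. Smurf1 changed sign with limma-voom, to 0.51 over all replicates and 0.72 in the blood replicates alone. Genes with few counts, and those in the Ly6Clow library of mouse 23, which detected the fewest genes, carry the widest errors.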
